A study of Mus musculus with 12 samples.

Results

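The mouse mammary tumour cell lines Py2T LT and PyMT-1099 LT were compared gene by gene in their control state. The comparison used the 4 libraries of cells given the control siRNA, 2 of each line, out of 12 libraries in the series. A gene entered when its value reached at least 1 CPM (counts scaled to a common library size of 1e6 reads) in at least 2 of these 4 libraries, which 11858 of 24454 genes in the table did. The filter used the level alone. A gene could enter through the libraries of 1 line, and a gene that did so while near 0 in the other line had to differ, so counts over tested members of a list describe these libraries and support nothing further.

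The series measured gene expression by RNA sequencing in 3 mouse mammary tumour lines after knockdown of Nrf2, the product of Nfe2l2. Both lines compared here carry the strain label MMTV-PyMT, that is, tumours driven in the mammary gland by the polyoma middle T antigen under the mouse mammary tumour virus promoter. The third line, MT∆Ecad, carries the label MMTV-Neu and is given only as a further level. All cells were grown in the same medium (DMEM with serum), and the control cells received a non-targeting siRNA (siCtl) for 48 hours, so that the lines differ in origin but not in the stated treatment. Each group held 2 biological replicates. The labels name both lines with the letters LT and do not spell them out. They do not say whether a line is 1 clone, and each line is 1 line, so a difference between them describes these lines and not a class of tumour. Where nothing says that the replicates came from separate thaws or days, p-values reflect only how far these libraries differ among themselves, which may be technical.

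Tumour cells of mammary epithelium can pass through an epithelial to mesenchymal transition (EMT), in which junction proteins such as E-cadherin are lost and factors of the SNAI, ZEB and TWIST families repress epithelial genes. Mammary epithelium is made of luminal cells, which express simple keratins, and of basal cells with Krt5, Krt14 and Trp63. HNF4, by contrast, is a factor of kidney, liver and gut epithelium and acts there on genes of transport and metabolism. PAX2 is a factor of kidney and urogenital tract.

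The control libraries held 27874077 and 35005191 reads in PyMT-1099 LT and 29643136 and 37070635 reads in Py2T LT. At these depths 3 reads corresponded to between 0.0809 and 0.108 CPM, and a gene with no read in a library is bounded by that value (counting error only). Each CPM value was a whole number of reads to within 0.01 read. Differences were tested with limma on log2(CPM + 1) and are given as Py2T LT minus PyMT-1099 LT, with Benjamini-Hochberg adjusted p-values over all 11858 genes. A gene was called at an adjusted p below 0.05, and called large when the log2 difference was also at least 1 in size. The added 1 makes differences of low genes smaller than the ratio of their values. Where 2 pairs of values are set against each other below, PyMT-1099 LT comes first, replicates 1 and 2, and Py2T LT second.

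Most tested genes differed between the lines. Of the 11858 genes, 6686 were called (56.4%), 3365 higher in Py2T LT (28.4%) and 3321 lower (28%). These shares are the background for all counts of list members called higher or lower below. Large differences were found for 2902 genes (24.5%), 1411 higher (11.9%) and 1491 lower (12.6%). They ran from -9.19 to 9.44 on the log2 scale around a median over all genes of -0.03. For 165 genes the difference was at least 5 in favour of Py2T LT, and for 82 genes at least 5 in favour of PyMT-1099 LT. Genes that share exons are counted repeatedly here: the 165 include 22 of the Pcdhg cluster, and the 82 include those of the Ugt1a cluster. The 165 also include Gm37013, Gm38666 and Gm38667, which overlap the Pcdhg cluster and had nearly the same values. The values of the 2 lines did not overlap for 9457 genes (79.8%), and among them were all 2902 genes with a large difference. A lack of overlap is therefore shared by most tested genes and does not set apart those for which it is given below.

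**Figure D1:**
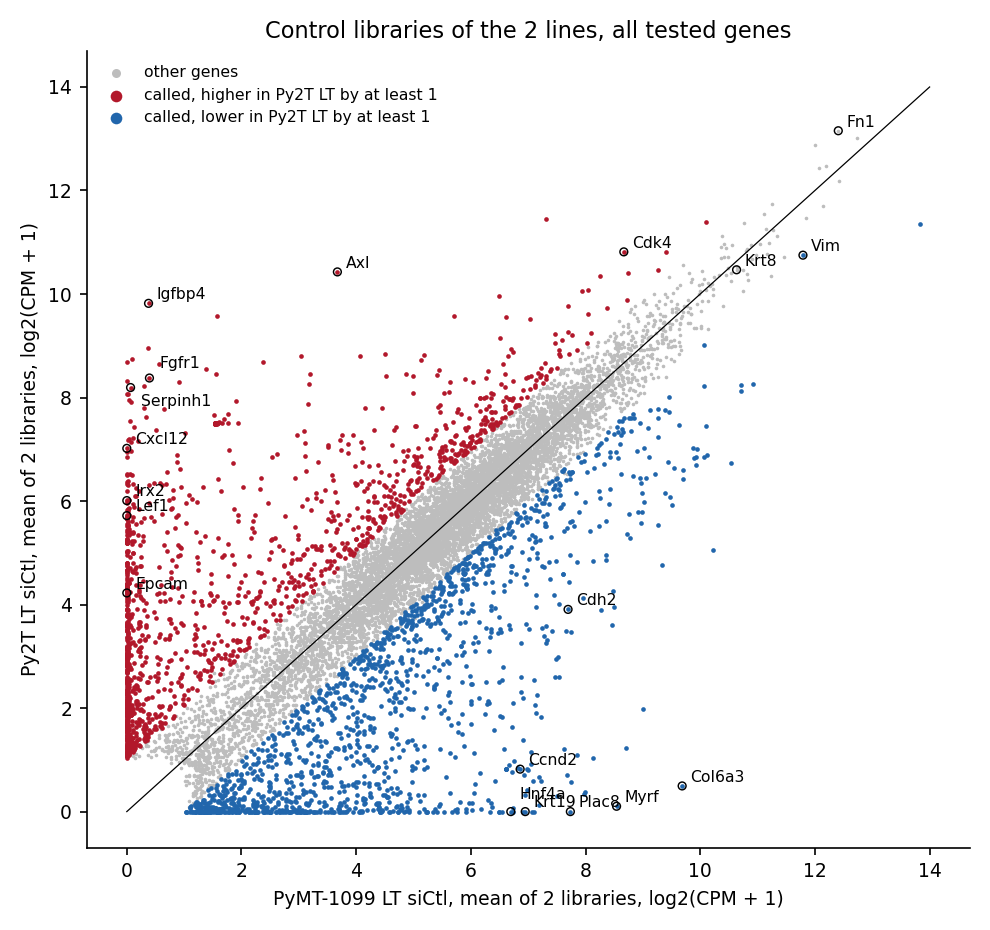
Each point is 1 of the 11858 tested genes, placed by the mean of its 2 control libraries in PyMT-1099 LT (x axis) and in Py2T LT (y axis), both as log2(CPM + 1). Red points are the 1411 genes called higher in Py2T LT by at least 1, blue points are the 1491 genes called lower by at least 1, and grey points are all other genes; the points along both axes are genes with almost no read in 1 line.

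The named genes with the largest differences were as follows. Igfbp4, a binding protein of insulin-like growth factors, was read at 0.287 and 0.314 CPM in PyMT-1099 LT and 979.6 and 832 CPM in Py2T LT. The lines did not overlap, and the log2 difference of 9.44 (SE 0.19, adjusted p = 2.1e-10) was the highest of the comparison. Igfbp3, of the same family, had no read in either PyMT-1099 LT library and reached 453 and 371 CPM in Py2T LT, at least 3830.1-fold higher with a floor of 3 reads per library. Moxd1, a monooxygenase-like protein, likewise went from no read to 296 and 340.5 CPM, at least 2956-fold higher. Serpinh1, the collagen chaperone HSP47, stood at 0.0359 and 0.0571 against 308 and 276 CPM. At the other end, Col6a3, a chain of collagen VI, was read at 826 and 818 CPM in PyMT-1099 LT and 0.472 and 0.351 CPM in Py2T LT. Its log2 difference of -9.19 (SE 0.10, adjusted p = 4e-11) was the lowest. Myrf, a membrane-bound transcription factor, followed at 372 and 371 against 0.0675 and 0.0809 CPM, and Plac8, a small cysteine-rich protein, had 233 and 193 CPM in PyMT-1099 LT and no read in Py2T LT, at least 2105-fold lower. Fgfr1 (0.287 and 0.343 against 339 and 324 CPM), a fibroblast growth factor receptor, and Scd1 (0.466 and 0.486 against 365 and 443 CPM), a fatty acid desaturase, were higher in Py2T LT, while Celsr2 (238 and 268 against 0.236 and 0.351 CPM), a cadherin of planar polarity, was lower.

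Both lines were checked against marker lists of the cell types a mammary tumour culture could hold. Of 9 epithelial markers, 4 reached 1 CPM in both control libraries of PyMT-1099 LT and 7 in both of Py2T LT, with summed levels of 3878 to 4484 CPM and 2566 to 3031 CPM. Most of that sum came from Krt8 and Krt18, the keratins of simple epithelia. Krt8 was read at 1695 and 1487 CPM in PyMT-1099 LT and 1545 and 1297 CPM in Py2T LT, and its difference of -0.17 was not called (adjusted p = 0.419). Of 9 fibroblast markers, 4 reached 1 CPM in both libraries of each line (Pdgfra, Pdgfrb, Col1a1 and Col1a2), and Dcn, Lum and Thy1, defining fibroblast genes, had no read in any of the 4 libraries. Of 8 endothelial markers 1 was above 1 CPM, Cdh5 (VE-cadherin), at 90.6 and 88 against 5.13 and 4.24 CPM, and of 9 haematopoietic markers 2 were, Csf1r and Cd68. The summed adipocyte markers stayed between 1.43 and 3.61 CPM. Of 7 myoepithelial and basal markers 2 reached 1 CPM in both libraries of PyMT-1099 LT and 1 in both of Py2T LT. Their sums, in this order of lines, were 16.5 to 18.5 CPM and 31.4 to 33.8 CPM. For 7 skeletal and smooth muscle markers the counts were 1 and 0, with sums of 3.17 to 8.39 CPM and 0.573 to 0.593 CPM. For 7 neural and Schwann markers they were 1 and 3, with sums of 39.8 to 46.4 CPM and 15.8 to 21.2 CPM. Elf5, a luminal progenitor factor, and Foxa1, a factor of hormone-sensing cells, had no read in PyMT-1099 LT and stood at 0.54 and 0.782 and 0.236 and 0.378 CPM in Py2T LT. The progesterone receptor Pgr and the milk protein Wap had no read in PyMT-1099 LT. In bulk libraries fewer cells of a type and less RNA per cell cannot be told apart.

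The control siRNA left Nfe2l2 expressed in both lines. Nfe2l2, the factor that drives antioxidant genes and the target of the series' other siRNA, was read at 113 and 113 CPM in PyMT-1099 LT and 89.7 and 83.6 CPM in Py2T LT, a log2 difference of -0.38 (SE 0.12, adjusted p = 0.0211). The Py2T LT values lay below both PyMT-1099 LT values. Nfe2l2 lies on chromosome 2, where the median difference over 941 tested genes was also -0.38 and 50.3% were called lower. Keap1, which targets Nrf2 for degradation, was higher in Py2T LT at 55.1 and 55.2 against 80.1 and 68 CPM. Both calls were lost when certain single libraries were left out. For Nfe2l2 the adjusted p rose to 0.107 without Py2T LT replicate 2, 0.0774 without PyMT-1099 LT replicate 1 and 0.0786 without PyMT-1099 LT replicate 2. For Keap1 it rose to 0.164 without Py2T LT replicate 1, 0.0849 without PyMT-1099 LT replicate 1 and 0.0861 without PyMT-1099 LT replicate 2.

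Epithelial genes did not move one way. Of 35 tested members of the junction and polarity list, 14 were higher and 16 lower in Py2T LT, with a median of -0.15 beside -0.03 over all genes. Cdh1, E-cadherin, was read at 47.8 and 51.6 CPM in PyMT-1099 LT and 12.5 and 15.2 CPM in Py2T LT. It was lower in Py2T LT, with a log2 difference of -1.77 (SE 0.15, adjusted p = 5.9e-06), and the lines did not overlap. Epcam, an epithelial adhesion protein, went the other way: it had no read in PyMT-1099 LT and 16.7 and 18.7 CPM in Py2T LT, at least 165-fold higher. Esrp1, a splicing regulator of epithelial isoforms, was close to 0 in PyMT-1099 LT and higher in Py2T LT at 0 and 0.0286 against 9.99 and 12.3 CPM, while its paralogue Esrp2 was lower at 26.4 and 25.3 against 3.14 and 4.99 CPM. The claudins Cldn3 (0 and 0.0571 against 13.5 and 12.6 CPM) and Cldn4 (6.74 and 6.86 against 183 and 130 CPM), tight junction proteins, were higher in Py2T LT, and so was Grhl2 (0.682 and 1.0 against 8.74 and 11.5 CPM), a factor of epithelial genes. Ppl (122 and 134 against 10.3 and 10.9 CPM), a plakin of the cell envelope, Lsr (53.2 and 51.1 against 6.54 and 7.9 CPM), of tricellular junctions, and Elf3 (18.5 and 14.9 against 1.92 and 1.73 CPM), an epithelial ETS factor, were lower.

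Keratins split as well. Of 10 tested keratin genes, 4 were higher and 5 lower in Py2T LT. Krt19, a simple keratin of ducts, had 125 and 120.1 CPM in PyMT-1099 LT and no read in Py2T LT, at least 1210.3-fold lower. Krt20, a keratin of gut and urothelium, was lower at 124 and 119.7 against 0.236 and 0.27 CPM, and Krt18 at 2615 and 2218 against 1424 and 1198 CPM. Krt7 (49.6 and 48.3 against 348 and 283 CPM), a ductal keratin, Krt14 (14.3 and 13.1 against 33.3 and 31.1 CPM), a basal keratin, Krt16 (3.05 and 2.26 against 14.5 and 8.74 CPM) and Krt80 (79.8 and 63.6 against 155 and 115 CPM) were higher. Krt17 was lower at 2.51 and 1.54 against 0.945 and 0.566 CPM, and Krt10, a keratin of differentiating epidermis, at 5.24 and 4.4 against 1.75 and 1.83 CPM. The calls of Krt17 and Krt80 were lost when single libraries were left out (adjusted p of up to 0.0641 without PyMT-1099 LT replicate 1 and 0.058 without Py2T LT replicate 2 for Krt17, and up to 0.0836 without Py2T LT replicate 1 and 0.0781 without PyMT-1099 LT replicate 2 for Krt80). The basal partner of Krt14, Krt5, stayed under 1 CPM in all 4 libraries, as did Trp63.

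The EMT factors differed by member. Zeb1 was read at 57.3 and 67.1 CPM in PyMT-1099 LT and 68.7 and 83.6 CPM in Py2T LT, Zeb2 at 46.7 and 59.1 CPM in PyMT-1099 LT and 33.5 and 49.3 CPM in Py2T LT and Snai1 at 40.2 and 47.7 CPM in PyMT-1099 LT and 41.5 and 44.1 CPM in Py2T LT. None of these 3 repressors of E-cadherin was called, with adjusted p of 0.23, 0.374 and 0.871. Zeb1 and Zeb2 were called when the fit held a term for the replicate number, as given at the end. Other members of the list were read in Py2T LT only: Twist1 and Twist2 had no read in PyMT-1099 LT and 5.7 and 6.34 and 8.23 and 5.58 CPM in Py2T LT, and Snai2 had 3.91 and 3.37 CPM. Prrx1, a homeobox factor of mesenchyme, had no read in PyMT-1099 LT and 17 and 22.6 CPM in Py2T LT, at least 184-fold higher, and Foxc2, a forkhead factor of mesenchyme, had 37.5 and 37.8 CPM against no read, at least 349.9-fold higher. Of 25 tested EMT factors, 13 were higher and 6 lower, beside 28.4% and 28% of all genes, with a median of 0.43. Those lower included Id1 (56.4 and 58.4 against 9.28 and 8.04 CPM), an inhibitor of basic helix-loop-helix factors, and Foxf2 (83.4 and 82 against 19 and 17 CPM). Factors without a read in PyMT-1099 LT, such as Twist1, Twist2, Prrx1 and Foxc2, passed the filter only through Py2T LT. The count is thus no support for a difference of the list.

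Among mesenchymal structural genes, 12 of 29 were higher and 11 lower, with a median of 0.09. Cdh2, N-cadherin, was read at 208 and 205 CPM in PyMT-1099 LT and 13.7 and 14.3 CPM in Py2T LT, with a log2 difference of -3.79 (SE 0.09, adjusted p = 8.1e-10). Vim, the mesenchymal intermediate filament, was lower at 3718 and 3377 against 1855 and 1598 CPM. Fn1, fibronectin, was higher at 5389 and 5474 against 8609 and 9655 CPM. Axl, a receptor kinase often high in mesenchymal tumour cells, stood at 11.6 and 11.9 against 1415 and 1338 CPM, Nt5e, the ectoenzyme CD73, at 0.0359 and 0.0857 against 399 and 462 CPM, and Fscn1, an actin bundler, at 7.18 and 7.2 against 484 and 414 CPM. Tagln (34.2 and 20.1 against 0 and 0.0809 CPM) and Cald1 (1058 and 1076 against 268 and 334 CPM), which bind actin, were lower. PyMT-1099 LT thus had the higher values of Cdh1, Cdh2 and Vim at once, and Py2T LT the higher values of Epcam, Fn1 and Axl.

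Among cadherins and protocadherins 17 of 20 tested members had a large difference, 8 higher and 9 lower. Those near 0 in 1 line passed the filter only through the other, so this count is no support for a difference of the list. Cdh16, a cadherin of kidney tubules, was read in PyMT-1099 LT at 87.6 and 90.6 CPM and had no read in Py2T LT. Cdh17, a cadherin of the gut, was lower at 94.8 and 118 against 0.101 and 0 CPM. Fat4 (0.0359 and 0.0571 against 125 and 159 CPM), a giant cadherin of the Hippo pathway, Cdh10 (0.0359 and 0.114 against 36.5 and 46.8 CPM) and Pcdh7 (0.0718 and 0.0857 against 29.2 and 32.5 CPM) were higher in Py2T LT.

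Several lineage transcription factors were read in 1 line and had no read in the other. Pax2, a factor of kidney and urogenital tract, was read at 128 and 144 CPM in PyMT-1099 LT and had no read in Py2T LT. It was at least 1342-fold lower, with a log2 difference of -7.09 (SE 0.09, adjusted p = 4.1e-11). Hnf4a, a nuclear receptor of liver, kidney and gut, had 99.7 and 106 CPM against no read, at least 1015-fold lower. Foxa2 (36.5 and 30.3 CPM), a forkhead factor of endoderm, Cdx2 (21.7 and 19.2 CPM), a factor of intestine, and Sall1 (38.7 and 44.4 CPM), a zinc finger factor of kidney, had no read in Py2T LT. Gata6 was lower at 12.5 and 11.7 against 0.0675 and 0.0809 CPM. Pax2, Hnf4a, Foxa2, Cdx2 and Sall1 had no read in the control libraries of MT∆Ecad.

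Because of these factors, 32 genes of kidney, liver and intestinal epithelium were listed after their values had been seen, so that their count is a description. Of these, 25 reached 1 CPM in both control libraries of PyMT-1099 LT, 1 in both of Py2T LT and 3 in both of MT∆Ecad. Pkhd1, the fibrocystin of renal and biliary cilia, had 81.1 and 77.8 CPM in PyMT-1099 LT and no read in Py2T LT. Bicc1, an RNA-binding protein of kidney tubules, was lower in Py2T LT at 204 and 223 against 0.506 and 0.459 CPM, Rbp4, a retinol carrier made in liver, had 113 and 98 CPM against no read, and Vil1, the microvillus protein villin, had 25.7 and 20.7 CPM against no read. The list was not complete in PyMT-1099 LT: Umod, the abundant protein of the loop of Henle, had no read in any control library, Alb had none in PyMT-1099 LT, and Aqp2, the water channel of the collecting duct, stood at 0.0718 and 0.143 CPM.

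Py2T LT had its own set of such factors. Irx1 and Irx2, neighbouring homeobox genes, had no read in PyMT-1099 LT and 60.1 and 43 and 65.6 and 61.3 CPM in Py2T LT. Pax6, a factor of eye and neural tissue, had 19.9 and 21 CPM and Msx2, a homeobox target of BMP, 14.2 and 11.4 CPM, both against no read. Of 35 tested homeobox and lineage factors outside the Hox clusters, 20 were higher and 14 lower, beside 28.4% and 28% of all genes. Their median was 0.86. Factors without a read in 1 line passed the filter only through the other, so the count is no support for a difference of the list. Tbx18, a T-box factor of mesenchyme, was lower at 11.3 and 13.2 against 0.0675 and 0.108 CPM, and Sim2, with 11.7 and 10.03 CPM in PyMT-1099 LT, had no read in Py2T LT.

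Among Hox genes, which mark position along the body axis, 11 of 39 were tested, with 6 called higher and 5 lower. Several of them passed the filter only through the line where they are high, so that their call was largely fixed by the filter. In PyMT-1099 LT Hoxa10 had 9.15 and 9.6 CPM, Hoxb9 6.13 and 4.11, Hoxb6 2.83 and 5.06, Hoxb8 1.36 and 1.8 and Hoxb13 1.72 and 1.54 CPM, and none of these 5 had a read in Py2T LT. Of those higher in Py2T LT, Hoxb2 had no read in PyMT-1099 LT and 8.03 and 8.09 CPM in Py2T LT, Hoxa4 had 1.69 and 1.48 CPM against no read, and Hoxa3 (0.287 and 0.20 against 2.19 and 2.19 CPM), Hoxb4 (3.26 and 3.29 against 5.8 and 6.74 CPM) and Hoxb3 (3.66 and 3.77 against 8.13 and 7.36 CPM) were read in both lines.

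**Figure D2:**
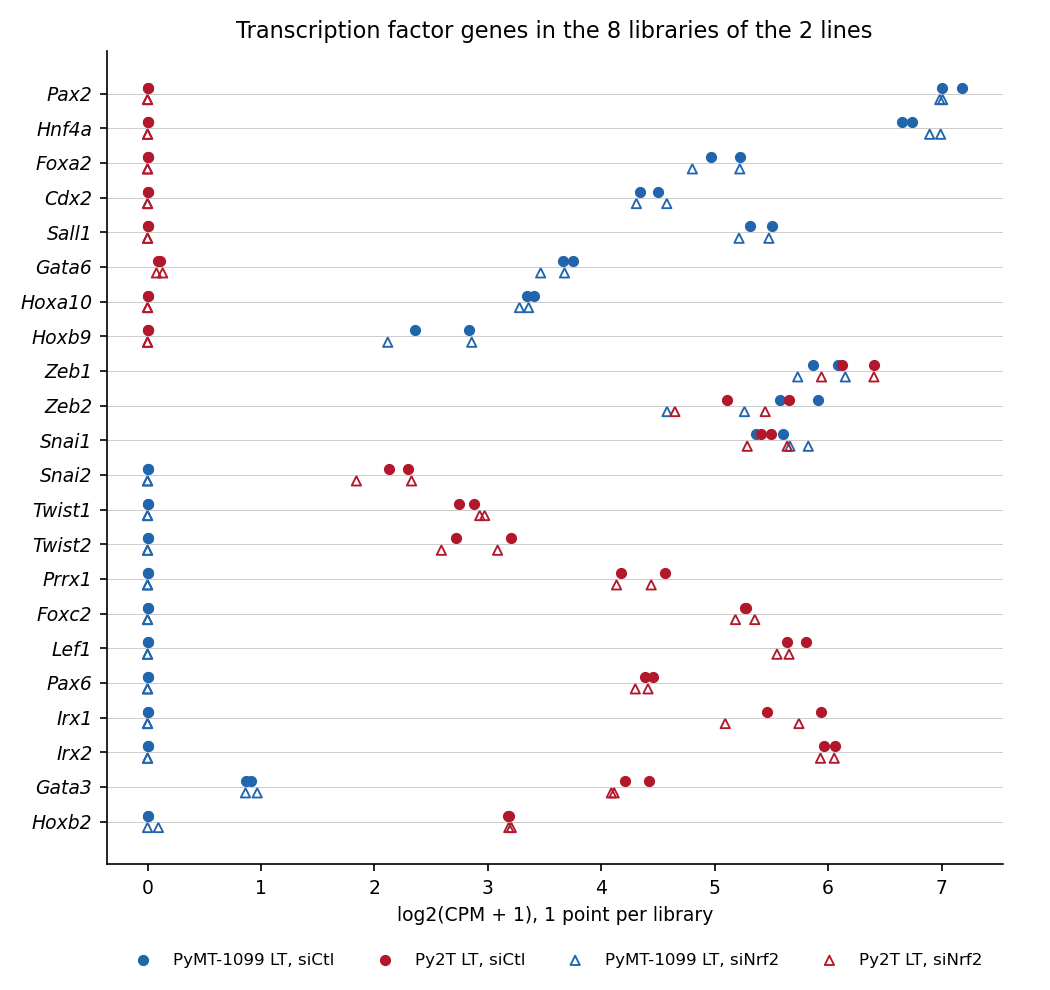
Each row is a transcription factor gene and each point a library, as log2(CPM + 1), with circles for siCtl, open triangles for siNrf2, blue for PyMT-1099 LT and red for Py2T LT. Pax2 to Hoxb9 lie to the right in PyMT-1099 LT with Py2T LT at or next to 0, Zeb1, Zeb2 and Snai1 overlap or nearly so, and Snai2 to Hoxb2 lie to the right in Py2T LT.

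The genes read in 1 line were then counted over the whole table, as those with at least 5 CPM in both control libraries of a line and at most 3 reads in each control library of the other. There were 117 such genes in PyMT-1099 LT, of which 67 had no read at all in Py2T LT, and 237 in Py2T LT, of which 137 had no read at all in PyMT-1099 LT. In the siNrf2 libraries of the same lines the criterion was met again by 96 of the 117 and 212 of the 237. At least 1 CPM in both control libraries of MT∆Ecad was found for 19 of the 117 and 138 of the 237. In MT∆Ecad, then, more of the Py2T LT set was read than of the PyMT-1099 LT set.

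Promoters of these genes were taken from RefSeq on GRCm38.p6 (250 bases before to 50 after the first listed start site), the build the files use. A promoter was found for 9452 of the 11858 tested genes, for 78 of the 117 and for 176 of the 237. The median number of CG dinucleotides in the 300 bases was 21 over all genes tested, 20.5 in the Py2T LT set and 8.5 in the PyMT-1099 LT set. At most 5 CG dinucleotides were held by 8.64% of all promoters, 15.9% of the Py2T LT set and 34.6% of the PyMT-1099 LT set. Among all genes with a large difference the share was 14.2% for those higher in Py2T LT and 22.6% for those lower. Vil1 and Lef1, a Wnt pathway factor that only Py2T LT reads among the 2 lines, are shown as examples of the 2 sets, with every CG in capitals (5 and 18 of them). Vil1 lies on the plus strand at chr1:74409134-74409433 and Lef1 on the plus strand at chr3:131110047-131110346.
Vil1: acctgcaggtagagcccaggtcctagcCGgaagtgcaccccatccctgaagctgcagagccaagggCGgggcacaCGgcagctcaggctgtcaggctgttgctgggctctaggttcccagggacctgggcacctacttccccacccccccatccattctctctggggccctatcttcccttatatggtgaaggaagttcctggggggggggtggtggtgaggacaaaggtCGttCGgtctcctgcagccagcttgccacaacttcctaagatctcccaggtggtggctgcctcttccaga
Lef1: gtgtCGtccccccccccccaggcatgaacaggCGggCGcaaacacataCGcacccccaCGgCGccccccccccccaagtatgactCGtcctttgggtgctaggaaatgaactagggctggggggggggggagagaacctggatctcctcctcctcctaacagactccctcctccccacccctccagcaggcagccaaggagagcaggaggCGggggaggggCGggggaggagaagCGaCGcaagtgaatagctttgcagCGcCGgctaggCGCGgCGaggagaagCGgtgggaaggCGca

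Of 19 tested mammary lineage genes 11 were higher in Py2T LT and 4 lower, beside 28.4% and 28% of all genes. Their median was 1.14. Members without a read in PyMT-1099 LT, such as Csn3 and Esr1, passed the filter only through Py2T LT. The count is thus no support for a difference of the list. Gata3, the factor of luminal identity, was read at 0.825 and 0.886 CPM in PyMT-1099 LT and 17.4 and 20.4 CPM in Py2T LT. It was higher by 3.42 on the log2 scale (SE 0.12, adjusted p = 7.3e-09), with no overlap. Csn3, a milk casein, had no read in PyMT-1099 LT and 11.5 and 10.6 CPM in Py2T LT. Procr (0.969 and 0.886 against 37.7 and 29 CPM), a receptor of mammary stem cell populations, was higher, and Cd200 had 20.6 and 22.1 CPM against no read. Esr1, the oestrogen receptor, had no read in PyMT-1099 LT and 1.48 and 1.32 CPM in Py2T LT. Muc1 (21.8 and 20.3 against 0.135 and 0.378 CPM), a luminal mucin, and Mfge8 (646 and 579 against 235 and 206 CPM), a milk fat globule protein, were lower.

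Of 23 tested collagen genes, 13 were lower in Py2T LT and 6 higher, beside 28% and 28.4% of all genes. Their median was -0.79. All 3 tested chains of collagen VI were lower, Col6a1 at 294 and 265 against 0.641 and 1.54 CPM and Col6a2 at 26.7 and 24 against 0.304 and 0.432 CPM besides Col6a3. Col1a1, a chain of collagen I, was lower at 209.7 and 252 against 21.9 and 33.6 CPM, whereas the other chain, Col1a2, was not called at 15.2 and 20.1 CPM in PyMT-1099 LT and 17.2 and 24 CPM in Py2T LT. Col3a1 was lower at 14.2 and 11.6 against 0.337 and 0.297 CPM. Col8a1 (0 and 0.0857 against 154 and 225 CPM), of vessel and corneal matrix, and Col5a1 (12 and 13.1 against 153 and 155 CPM) and Col5a3 (6.89 and 9.43 against 310.4 and 299 CPM), of fibrillar collagen V, were higher, as was Col17a1 (0.646 and 0.543 against 19 and 13.2 CPM), of hemidesmosomes. Serpinh1, which folds procollagen, was near 0 in PyMT-1099 LT, the line with the higher Col1a1 and Col3a1.

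Other matrix genes followed no single direction. Of 35 matricellular and cross-linking genes 12 were higher and 19 lower, with a median of -0.51. Igfbp7 (383 and 337 against 13.9 and 15.2 CPM), Fbn1 (51.4 and 62.1 against 1.92 and 1.7 CPM), the fibrillin of microfibrils, Postn (20.02 and 26.9 against 1.52 and 2.29 CPM), periostin, and Sparc (853 and 735 against 171 and 179.8 CPM) were lower. Tgfbi (0.359 and 0.429 against 49.2 and 47 CPM), an adhesion protein induced by TGF-beta, and Matn2 (0 and 0.0286 against 43.2 and 47.4 CPM), a matrilin, were higher. Of 16 proteoglycan genes 10 were higher and 3 lower: Sdc2 (0 and 0.0286 against 41.1 and 42.2 CPM) and Sdc3 (2.4 and 2.37 against 220.3 and 188 CPM), syndecans, Vcan (0.646 and 0.971 against 34.1 and 56.3 CPM), versican, and Has2 (27.3 and 34.7 against 221 and 332 CPM), a hyaluronan synthase, were higher, and Agrn (522 and 534 against 83.4 and 89.2 CPM), agrin, was lower. The laminin chains Lama3 (0.897 and 1.23 against 57.3 and 65.5 CPM) and Lamb1 (84.2 and 93.2 against 986 and 1003 CPM) were higher and Lama5 (381 and 466 against 37.7 and 43 CPM) was lower.

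Of 14 integrin genes 5 were higher and 5 lower. Itga2 (38.6 and 45.9 against 202 and 249.7 CPM), of the collagen receptor, Itga5 (420.1 and 436 against 1412 and 1294 CPM), of the fibronectin receptor, and Itgb2 (4.52 and 6.23 against 33.4 and 35.1 CPM), a leukocyte chain, were higher, and Itgb6 (8.11 and 7.37 against 0.101 and 0.108 CPM), an activator of latent TGF-beta, and Itgb4 (105 and 103 against 44.5 and 39.7 CPM), of hemidesmosomes, were lower. Of 28 protease and inhibitor genes 13 were higher and 11 lower. Plau, urokinase, stood at 0.0359 and 0.0571 against 236 and 247 CPM, Adam12 at 0.251 and 0.20 against 288 and 307 CPM and Timp3, an inhibitor of metalloproteinases, at 4.99 and 3.54 against 463 and 363 CPM. Mmp2, gelatinase A, was lower at 50.01 and 47.1 against 0.236 and 0.324 CPM.

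Growth factor ligands had the highest median of the lists with at least 10 tested members, 1.38. Of 28 tested members, out of 42, 16 were higher and 11 lower, beside 28.4% and 28% of all genes. Ligands without a read in PyMT-1099 LT, such as Fgf5 and Gdnf, passed the filter only through Py2T LT. The count and median are thus no support for a difference of the list. Fgf5 and Gdnf, ligands of FGF receptors and of Ret, had no read in PyMT-1099 LT and 36.7 and 34.6 and 28 and 24.8 CPM in Py2T LT. Bdnf (1.65 and 1.74 against 15 and 14.8 CPM), a neurotrophin, and Angptl4 (10.2 and 9.66 against 86.8 and 62.3 CPM) were higher. Pdgfb (360.2 and 347 against 15.5 and 21.2 CPM), Hgf (13.7 and 22.5 against 0.27 and 0.566 CPM), the ligand of Met, and Fgf1 (5.31 and 5.17 against 0.101 and 0.108 CPM) were lower. Their receptors divided evenly, with 13 of 30 receptor tyrosine kinases higher and 13 lower. Ret, the receptor of GDNF family ligands, stood at 0.502 and 0.628 against 229 and 207 CPM, beside Gdnf in the same line, and Ptk7 (0.0718 and 0.0571 against 93.5 and 86.9 CPM) and Pdgfra (2.69 and 2.97 against 46.9 and 48.5 CPM) were higher too. Fgfr2 (18.5 and 19.997 against 0.0675 and 0.162 CPM), Epha4 (55 and 61.5 against 1.48 and 1.35 CPM) and Egfr (188 and 205 against 40.7 and 43.3 CPM) were lower. Met was not called at 196 and 237 CPM in PyMT-1099 LT and 194 and 253 CPM in Py2T LT, and neither was Erbb2 at 80.7 and 85.6 CPM in PyMT-1099 LT and 97 and 97.7 CPM in Py2T LT.

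Of 30 tested Wnt pathway genes 20 were higher in Py2T LT and 5 lower, beside 28.4% and 28% of all genes. Their median was 0.997. Members at or near 0 in PyMT-1099 LT, such as Lef1 and Fzd6, passed the filter only through Py2T LT. The count and median are thus no support for a difference of the list. Wnt5a (0.574 and 0.429 against 78.5 and 82.6 CPM), a ligand of the non-canonical branch, Fzd6 (0 and 0.0286 against 59.9 and 52.8 CPM), a receptor, and Lgr6 (9.54 and 7.0 against 365 and 335 CPM), a receptor of R-spondins, were higher. Lef1, the nuclear partner of beta-catenin whose promoter is shown above, had no read in PyMT-1099 LT and 54.8 and 48.7 CPM in Py2T LT, at least 481-fold higher. Wnt4 (8.43 and 5.43 against 0.0337 and 0 CPM) and Fzd7 (36.6 and 39.1 against 10.4 and 11.8 CPM) were lower.

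In the TGF-beta and BMP list 12 of 35 genes were higher and 16 lower. Among the ligands Tgfb2 (21 and 17.6 against 0.371 and 0.513 CPM), Tgfb1 (74 and 73.8 against 36.2 and 34.5 CPM), Inhbb (99.8 and 88.8 against 1.05 and 1.59 CPM) and Gdf15 (28.1 and 24.9 against 0.202 and 0 CPM) were lower, while Tgfb3 (2.62 and 3.09 against 52.2 and 51.4 CPM), Inhba (0.933 and 0.743 against 95.1 and 121 CPM) and Bmp6 (0.0718 and 0.0286 against 6.38 and 5.1 CPM) were higher. Inhba and Inhbb code for beta chains of activins, and they differed in opposite directions. Among the receptors Tgfbr1 (159 and 199 against 24.4 and 31.2 CPM) and Tgfbr2 (110.4 and 95.6 against 70.4 and 65.8 CPM) were lower, as was Fst (14 and 11.7 against 0.101 and 0.189 CPM), which binds activin, and Smad3 (115 and 95.2 against 160.2 and 148 CPM), which carries the signal to the nucleus, was higher.

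Notch and Hedgehog genes were 9 higher and 9 lower of 21. Notch1 (0.933 and 0.514 against 53.4 and 59.3 CPM) and its ligands Dll1 and Dll4 (0.431 and 0.971 against 11.3 and 13 CPM) were higher in Py2T LT, Dll1 with 11.1 and 9.39 CPM against no read. Hey1 (4.23 and 4.83 against 0.202 and 0.162 CPM), a Notch target, was lower. Gli3 (3.37 and 4.09 against 49.7 and 54 CPM) was higher and Ptch1 (71.9 and 79.8 against 31.5 and 39.8 CPM), the Hedgehog receptor, lower. Of 29 YAP and TEAD target genes 7 were higher and 15 lower, with a median of -0.28. Ccn2, connective tissue growth factor, was lower at 1968 and 1430.5 against 295 and 260.02 CPM, Ccn1 at 471 and 307 against 174 and 149 CPM and F3, tissue factor, at 176 and 129 against 10.4 and 11.1 CPM. Axl, also on that list, was higher as given above.

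Semaphorins and their receptors, which steer axons and cell movement, belong to a list of axon guidance ligands and receptors, of which 16 of 43 tested members were higher and 22 lower. Sema7a (0.287 and 0.286 against 515 and 475 CPM) and Plxna4 (0 and 0.0571 against 238 and 255 CPM) were higher, and Slit2 had 5.36 and 7.09 CPM against no read. Sema3e (169.8 and 200.1 against 4.59 and 5.56 CPM), Sema3c (203 and 198 against 9.21 and 11.2 CPM) and Plxna2 (48.6 and 47.8 against 3.78 and 4.1 CPM) were lower.

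Genes that signal to immune cells differed by member. Of 35 chemokine and cytokine genes 10 were higher and 19 lower. Ccl2, which draws monocytes, was read at 189 and 203 CPM in PyMT-1099 LT and 0.945 and 1.73 CPM in Py2T LT, a log2 difference of -6.42 (SE 0.28, adjusted p = 4.2e-08). Cxcl12, the ligand of Cxcr4, had no read in PyMT-1099 LT and 132 and 125 CPM in Py2T LT, at least 1195-fold higher. Its scavenging receptor Ackr3 was higher at 8.32 and 6.68 against 176 and 149 CPM, and Cxcr4 itself had no read in any of the 4 libraries. Il33 (25.7 and 27.7 against 0 and 0.054 CPM) and its receptor Il1rl1 (153 and 155 against 9.99 and 9.12 CPM) were both lower, as was Il1r1 (163 and 154 against 8.4 and 9.44 CPM), and Csf2 (0.574 and 0.40 against 27.7 and 23.6 CPM), GM-CSF, was higher.

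Class I heavy and light chains were higher in Py2T LT. H2-D1, a classical class I heavy chain, was read at 1.08 and 0.971 CPM in PyMT-1099 LT and 166 and 151 CPM in Py2T LT, H2-K1 at 14.6 and 14.8 CPM in PyMT-1099 LT and 104 and 98.9 CPM in Py2T LT and B2m, their light chain, at 71.3 and 71.3 CPM in PyMT-1099 LT and 157 and 174 CPM in Py2T LT. The log2 differences were 6.30, 2.71 and 1.20. Of 16 tested genes of the antigen presentation list 7 were higher and 2 lower (56.2% called, beside 56.4% of all genes). Tap2, of the peptide transporter, and Tapbp, of the peptide loading complex, were not called, with log2 differences of 0.36 (adjusted p = 0.122) and -0.34 (adjusted p = 0.0564). Cd274, PD-L1, was lower at 8.9 and 9.26 against 1.01 and 0.836 CPM. Reads of H2 genes can be divided among near-identical copies and between strain haplotypes, so their values are uncertain. Of 34 interferon-stimulated genes 11 were higher and 13 lower, and all lay between -2.44 (Stat2, 36.9 and 46.2 against 6.21 and 7.39 CPM) and 1.66 (Gbp2, 2.48 and 1.8 against 9.11 and 8.61 CPM).

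Complement and coagulation had the lowest median of the lists with at least 10 tested members, -1.10. Of 16 tested members, out of 30, 9 were lower and 5 higher, beside 28% and 28.4% of all genes. Members near 0 in 1 line, such as Tfpi and Thbd, passed the filter only through the other. The count and median are thus no support for a difference of the list. F13a1 (122 and 117 against 3.0 and 4.24 CPM), a clotting transglutaminase, Tfpi (14.4 and 15.8 against 0.236 and 0.27 CPM), an inhibitor of tissue factor, and Pros1 (45.6 and 50.2 against 4.99 and 7.9 CPM) were lower. Thbd, thrombomodulin, was higher at 0.0359 and 0.0286 against 148 and 143 CPM and Tfpi2, a related inhibitor, had 70.3 and 95.8 CPM against no read. Of 29 S100, annexin and galectin genes 7 were higher and 19 lower. The galectins Lgals2 (221 and 186 against 0.573 and 0.701 CPM), Lgals9 (139 and 124 against 1.05 and 1.43 CPM) and Lgals4 (40.8 and 30.2 against 0.202 and 0.297 CPM) were lower, and S100a4 (527 and 503 against 970.1 and 911 CPM), a marker of motile cells, was higher.

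**Figure D3:**
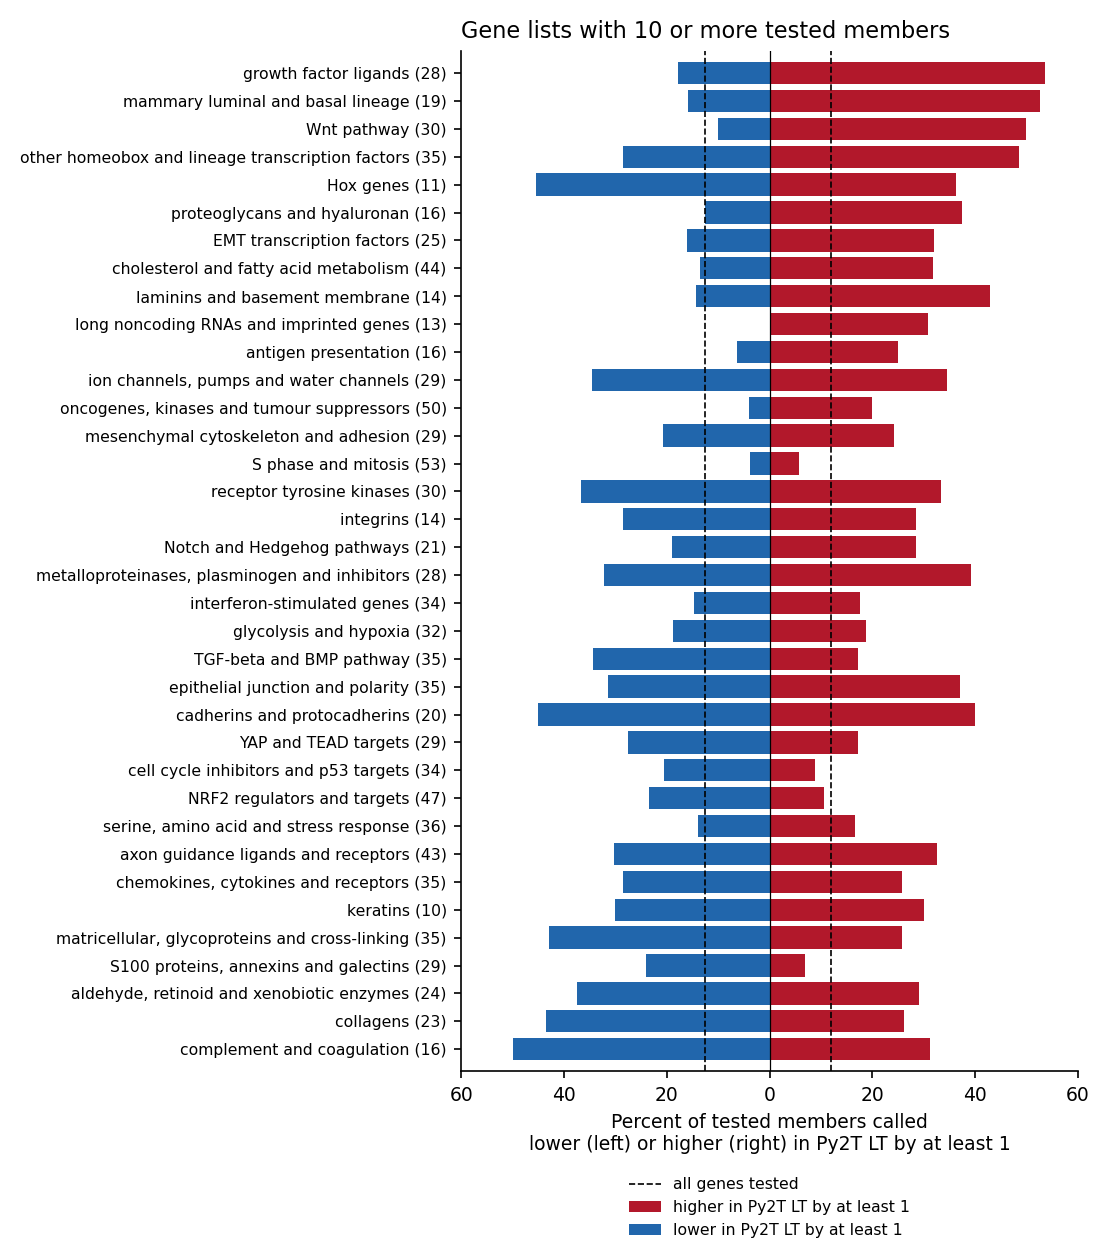
Bars give the percent of tested members of each gene list that were called higher (red, right) or lower (blue, left) in Py2T LT with a log2 difference of at least 1; numbers in brackets are tested members and lists are ordered by median difference. Dashed lines mark the same shares over all 11858 genes, 11.9% and 12.6%. Growth factor ligands (median 1.38) stand at the top and complement and coagulation (median -1.10) at the bottom, while the S phase and mitosis list lies within both dashed lines.

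Cell division genes had few large differences. Of 53 S phase and mitosis genes, all tested, 5 had a large difference (9.43%, beside 24.5% of all genes), 3 higher and 2 lower. Ccnd2, cyclin D2, was read at 121 and 109.8 CPM in PyMT-1099 LT and 0.776 and 0.755 CPM in Py2T LT, a log2 difference of -6.04 (SE 0.14, adjusted p = 4.9e-10). Its kinase partner Cdk6 was lower at 649 and 687 against 58.6 and 84.4 CPM. Cdk4, the other partner, was higher at 419.7 and 392 against 1895 and 1709 CPM, and Ccnd1, cyclin D1, at 747 and 612 against 1812 and 1772 CPM. PyMT-1099 LT therefore had the higher values of Ccnd2 and Cdk6, and Py2T LT those of Ccnd1 and Cdk4. The remaining gene of the 5 was Ccnb2, a mitotic cyclin, at 49 and 50.9 against 129 and 123 CPM. Mki67, a proliferation marker, was not called at 340.1 and 596 CPM in PyMT-1099 LT and 262 and 411 CPM in Py2T LT, where replicate 2 was above replicate 1 in both lines.

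Of 50 oncogenes and tumour suppressors 28 were not called. Myc, Rb1 and Trp53 were among them, Trp53 at 286 and 262 CPM in PyMT-1099 LT and 246 and 221 CPM in Py2T LT. Trp53 was called when the fit held a term for the replicate number, as given at the end. Cdkn2a, the locus of p16 and p19, was read at 53.8 and 59.3 CPM in PyMT-1099 LT and 53.9 and 54.9 CPM in Py2T LT and was not called. Fyn (0 and 0.0286 against 48.4 and 46.6 CPM), a Src family kinase, Fosb (2.44 and 2.34 against 35.2 and 34.9 CPM) and Hmga2 (239 and 248 against 1048 and 1084 CPM), a chromatin protein of embryonic cells, were higher, and Dusp1 (16.6 and 13.6 against 3.0 and 2.05 CPM) and Spry1 (11.3 and 10.4 against 1.99 and 2.89 CPM), which damp MAP kinase signalling, were lower. Of 34 cell cycle inhibitor and p53 target genes 7 were higher and 14 lower. Pmaip1 (55.3 and 58.2 against 2.43 and 2.99 CPM), the death protein Noxa, and Plk2 (333 and 239 against 113 and 85.4 CPM) were lower, Perp (7.39 and 5.91 against 46.6 and 41.8 CPM) and Sulf2 (0.215 and 0.771 against 17.3 and 18.1 CPM) were higher, and Cdkn1a was not called at 125 and 114 CPM in PyMT-1099 LT and 123 and 116 CPM in Py2T LT. Mdm2, the ubiquitin ligase of p53, was lower at 2696 and 2979.7 against 1560.3 and 1812 CPM and stood at 79.3 and 76.6 CPM in MT∆Ecad; it was singled out after its values were seen.

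Nrf2 regulators and targets were 15 higher and 22 lower of 47, beside 28.4% and 28% of all genes. Their median was -0.31 in the control libraries and -0.07 in the siNrf2 libraries. Among enzymes of glutathione synthesis Gclm (148 and 135 against 98.8 and 87.4 CPM) and Gclc (109 and 109.5 against 82.1 and 79.4 CPM) were lower. The transferases Gstm2 (20.8 and 15 against 0.776 and 1.13 CPM) and Mgst1 (28.9 and 28.5 against 0.135 and 0.135 CPM), the exporter Abcc3 (27.1 and 29.7 against 0 and 0.027 CPM) and the reductase Akr1c13 (50.2 and 45.3 against 5.7 and 4.45 CPM) were lower. Txnrd1 (457 and 421 against 846 and 759 CPM), thioredoxin reductase, Ptgr1 (0.0359 and 0 against 20.4 and 20.9 CPM), a reductase of reactive carbonyls, and Cbr1 (0.108 and 0.229 against 16.8 and 17.3 CPM), a carbonyl reductase, were higher. Nqo1, a standard target of Nrf2, was not called at 2.94 and 3.17 CPM in PyMT-1099 LT and 3.85 and 2.75 CPM in Py2T LT, and Hmox1 was not called at 121 and 100.1 CPM in PyMT-1099 LT and 137 and 83.4 CPM in Py2T LT.

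Scd2, a stearoyl desaturase, was lower in Py2T LT at 13483 and 15593 against 2439.9 and 2766 CPM, while Scd1, its neighbour on chromosome 19, was higher, as given above. Elovl6 (13.5 and 19.08 against 117 and 169 CPM), which elongates fatty acids, was higher and Acacb (19.7 and 20.4 against 0.202 and 0.054 CPM), a carboxylase of mitochondria, lower. Of 44 cholesterol and fatty acid genes 22 were higher and 13 lower. In glycolysis Pfkm (201 and 205 against 43 and 44.7 CPM) and Pgam1 (633 and 595 against 46.8 and 44 CPM) were lower and Pfkp (0.143 and 0.20 against 27.7 and 24.4 CPM), the platelet form of phosphofructokinase, was higher, with 10 of 32 genes of that list higher and 10 lower. Bcat1 (2.62 and 2.91 against 266 and 225 CPM), of branched-chain amino acids, was higher, and Ass1, argininosuccinate synthase, had 20.1 and 17.1 CPM against no read. Got1 (565 and 532 against 118 and 110.3 CPM), an aspartate transaminase, was lower.

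Of 24 tested aldehyde, retinoid and xenobiotic enzymes 15 were lower and 8 higher, with a median of -0.57. Cyp1b1 (146 and 118 against 0.742 and 1.08 CPM), a cytochrome P450, was lower. Aldh1l1 (2.08 and 2.14 against 70.9 and 73.7 CPM) and Aldh1l2 (0.0359 and 0 against 18 and 14.5 CPM), which oxidise formyl folate, Aldh2 (16.4 and 17.4 against 236 and 209 CPM) and Crabp2 (0.143 and 0.286 against 38.9 and 39.4 CPM), a retinoic acid carrier, were higher. Among channels Cacna2d1 (202 and 264 against 1.08 and 1.21 CPM) and Cacna1g (107 and 118 against 0.911 and 0.674 CPM), of voltage-gated calcium channels, were lower, and Gja1 (21.4 and 21.9 against 430.2 and 486 CPM), connexin 43, P2rx7 (0.323 and 0.286 against 61.6 and 60.9 CPM), an ATP-gated channel, and Trpv4 (0.646 and 0.828 against 64.2 and 51 CPM) were higher.

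Few imprinted genes and long noncoding RNAs were read. Of 34 members 13 were tested, 5 were higher, none lower and 8 not called (38.5% called, beside 56.4% of all genes). Members without a read in PyMT-1099 LT, such as Mest and Snrpn, passed the filter only through Py2T LT and could only be higher there. The count is thus no support for a difference of the list. Mest and Snrpn had no read in PyMT-1099 LT and 7.12 and 5.64 and 3.47 and 3.32 CPM in Py2T LT, and Igf2r was higher at 46.3 and 51.5 against 106 and 120.1 CPM. Rhox5, an X-linked homeobox gene of the testis, was lower at 415 and 413 against 1.48 and 1.24 CPM. Dnmt3a (65.2 and 77.9 against 31.1 and 36.8 CPM) was lower and Dnmt3b (0.215 and 0.371 against 3.44 and 3.7 CPM), the other methyltransferase of new sites, was higher. Xist, which coats the inactive X, was read at 302 and 509 CPM in PyMT-1099 LT and 457 and 791 CPM in Py2T LT and was not called, and no Y-linked gene of the list had a read in either line. Xist was called when the fit held a term for the replicate number, as given at the end.

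Position on the chromosomes, which the choice of genes did not use, was also described. The median log2 difference over all genes was -0.03, but it was 0.62 on chromosome 10 (584 genes, 60.4% higher and 12.7% lower) and 0.49 on chromosome 14 (381 genes, 57% higher and 9.19% lower). On chromosome 2 it was -0.38 (941 genes, 14.2% higher and 50.3% lower) and on chromosome 16 it was -0.32 (373 genes, 16.1% higher and 40.8% lower). Over the 4 pairings of a Py2T LT with a PyMT-1099 LT control library the chromosome 10 median had an SD of 0.024 and the chromosome 2 median an SD of 0.030. In the siNrf2 libraries the medians were 0.59 on chromosome 10, 0.52 on chromosome 14, -0.37 on chromosome 2 and -0.32 on chromosome 16. Genes that lie together are not independent, and no test was made.

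**Figure D4:**
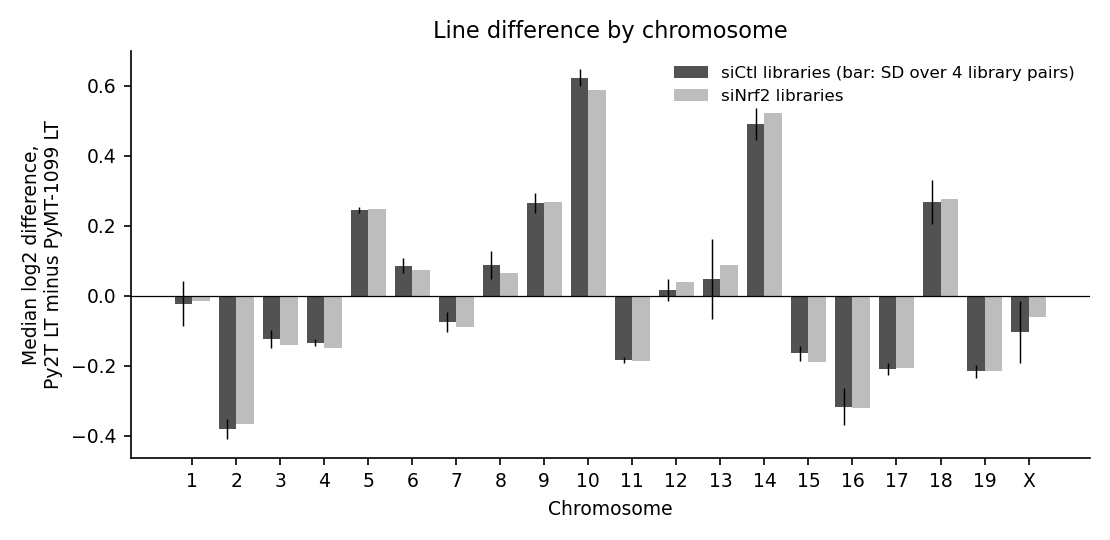
Bars give the median log2 difference, Py2T LT minus PyMT-1099 LT, of the tested genes of each chromosome, dark for siCtl libraries and light for siNrf2 libraries; error bars are the SD over the 4 pairings of control libraries. Chromosomes 10 and 14 stand above 0 at 0.62 and 0.49 and chromosome 2 below at -0.38, with the light bars close to the dark ones.

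Shorter stretches stood out within chromosomes. Of 11351 windows of 25 neighbouring tested genes, the middle 90% had a median between -0.55 and 0.52. The lowest window, at chr5:4753839-17730268, had a median of -3.02, and 3 windows that do not overlap on chromosome 19 had medians of -2.64 (chr19:40222239-42194593), -2.18 (chr19:24294794-29960718) and -1.73 (chr19:42247578-44838269). Runs of at least 6 consecutive tested genes that were all called in 1 direction by at least 1 numbered 14, of which 10 were lower and 4 higher.

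Among the runs of lower genes on chromosome 5 were Cdk6 to Mterf1b (chr5:3341004-4197651), 12 genes with a median of -2.72, and Cldn12 to Rundc3b (chr5:5505015-8623084), 10 genes with a median of -3.13. The median ratio of mean CPM, PyMT-1099 LT over Py2T LT, was 8.12 and 9.07 in these runs. They hold genes of unlike function, such as Cdk6, Cyp51 (1786 and 1578 against 306 and 301 CPM) of cholesterol synthesis and Dbf4 (851 and 1046 against 98.4 and 130.4 CPM) of replication. Abcb1b, which lies beside the second run, was higher in Py2T LT at 85.6 and 83 against 124 and 139 CPM, and Abcb1a, which overlaps Rundc3b, at 35.2 and 40.5 against 60.5 and 66.9 CPM. Both code for the drug exporter P-glycoprotein and were singled out after their values were seen. Without Py2T LT replicate 2 and without PyMT-1099 LT replicate 1 the adjusted p of Abcb1a was 0.0515 and 0.0596. Whether reads of overlapping genes were assigned by strand is not given in the sources used here, so such pairs cannot be told apart.

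On chromosome 19 the run from Rfx3 to Ric1 (chr19:27761721-29605921) held 12 genes with a median of -2.92 and a median ratio of 8.23. Jak2, a kinase of cytokine receptors, was read there at 619 and 899.8 CPM in PyMT-1099 LT and 83.3 and 116 CPM in Py2T LT, and Ak3, a mitochondrial adenylate kinase, at 1218 and 1166 CPM in PyMT-1099 LT and 32.7 and 32 CPM in Py2T LT. Cd274 lies in the same run. The runs Rrp12 to 4933411K16Rik (chr19:41859483-42071689, 8 genes, median -3.36), Pi4k2a to Loxl4 (chr19:42090148-42612806, 7 genes, median -3.14) and Abcc2 to Scd4 (chr19:43782308-44346743, 11 genes, median -2.19) hold Pgam1, Loxl4 (530.4 and 465 against 81.9 and 78.2 CPM), a collagen cross-linking enzyme, and Scd2. Several genes named above for their function therefore also lie in such runs, among them Cdk6, Pgam1, Scd2 and Cd274. Abcc3 and Cacna1g lie in a run of lower genes on chromosome 11. Hgf, Sema3e, Sema3c and Cacna2d1 lie in the lowest window on chromosome 5, and Got1, Il33 and Pax2 in the low windows on chromosome 19. The median level in MT∆Ecad was nearer to Py2T LT than to PyMT-1099 LT in each of these 6 runs on chromosomes 5 and 19. In the run from Cdk6 to Mterf1b, for example, the median log2(CPM + 1) was 4.90 in MT∆Ecad, beside 4.40 in Py2T LT and 7.47 in PyMT-1099 LT. DNA was not measured, and what sets the runs apart was not tested.

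On chromosome 10, where the whole chromosome leaned towards Py2T LT, the runs were shorter in effect. Mknk2 to Oaz1 (chr10:80665318-80829290) held 7 genes with a median of 1.12 and Cabin1 to Smarcb1 (chr10:75646110-75921614) held 6 with a median of 1.87, among them Mif (72.4 and 69.4 against 224 and 203 CPM), a cytokine, and Smarcb1 (86.8 and 75.8 against 189 and 162 CPM), a subunit of the SWI/SNF complex. Cdk4 and Hmga2, higher in Py2T LT as given above, lie in the window chr10:120361268-127067288 (median 1.27). The highest run of all, 22 genes of the Pcdhg cluster on chromosome 18 with a median of 5.95, and 8 of the 10 genes of a run on chromosome 1, those of the Ugt1a cluster (median of the run -5.80), share exons, so their values largely repeat 1 measurement. The other genes of that run are Mroh2a and Hjurp. The run from Actr3b to Speer4b on chromosome 5 holds near-identical copies and is uncertain for the same reason.

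**Figure D5:**
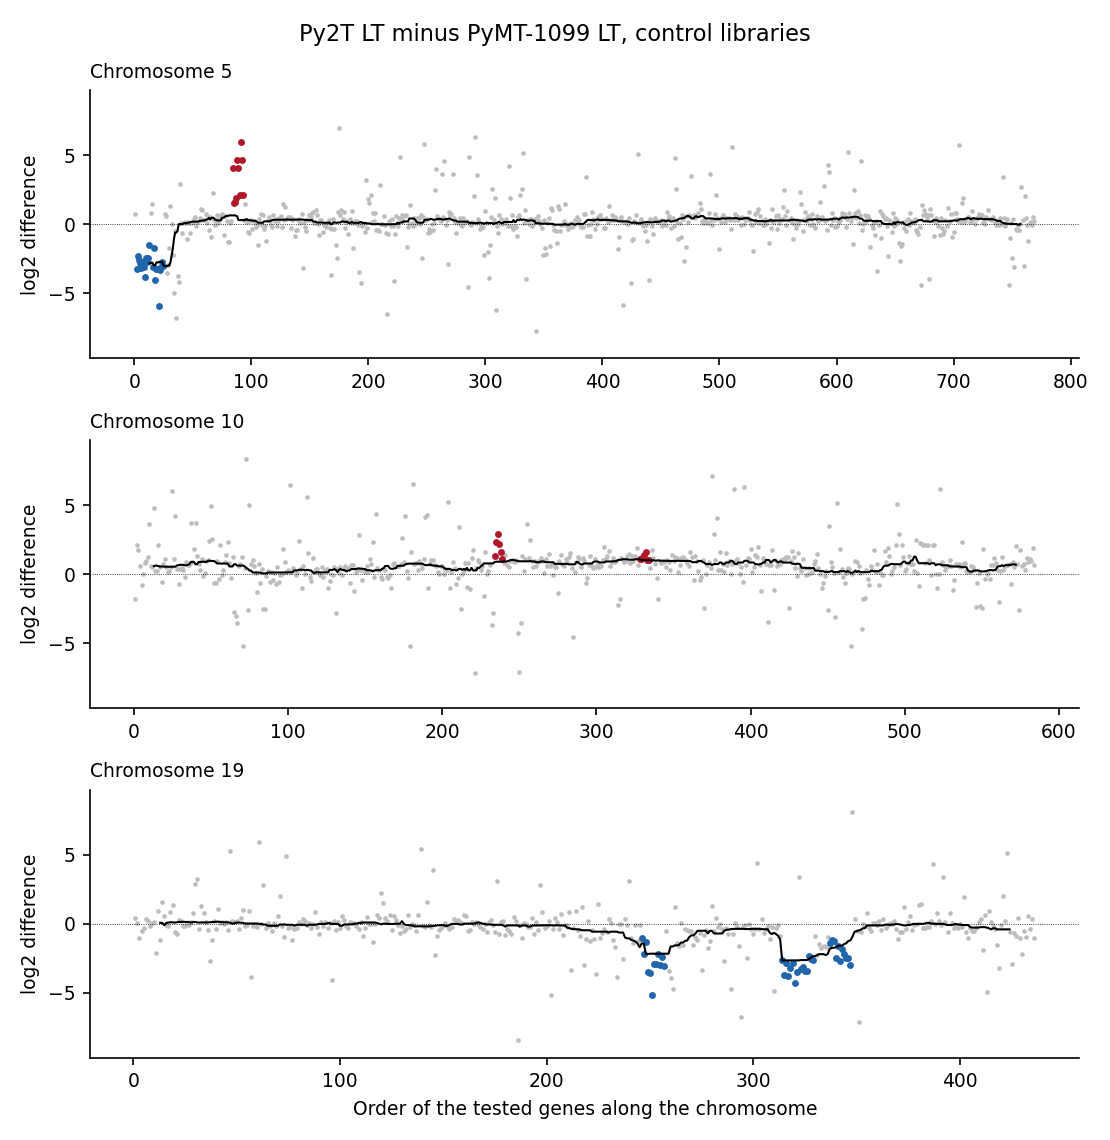
Each point is a tested gene on chromosome 5, 10 or 19 in its order along the chromosome, placed by its log2 difference, Py2T LT minus PyMT-1099 LT; the line is the median of 25 neighbouring genes. Coloured points are the runs of at least 6 genes all called by at least 1 in 1 direction (blue lower, red higher): the blue runs on chromosomes 5 and 19 have medians from -3.36 to -2.19, while the line on chromosome 10 lies above 0 along most of its length.

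The line difference was then read in the siNrf2 libraries, which the control comparison did not use, although the variance was estimated in 1 fit over all 12 libraries and the labels do not say whether control and knockdown cells came from the same cultures. There 6737 genes were called (56.8%) and 2880 had a large difference (24.3%). Of the 2902 large control differences 2870 were called with the same sign (98.9%), and of the 2880 large differences in siNrf2 libraries 2869 were called with the same sign in the control libraries (99.6%). None of the 2902 changed sign. Of all 6686 control calls, 6068 were called again with the same sign (90.8%) and 16 had the opposite sign, none of them called.

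Whether the line difference itself changed with the siRNA was tested by the line by siRNA term. No gene was called (0%) at an adjusted p below 0.05 by limma. The smallest adjusted p was 0.139, 463 genes had an unadjusted p below 0.05, and edgeR and DESeq2 on the recovered reads also called 0. Without a filter on low values the term called 15 genes, and with the filter applied over all 12 libraries it called 1. For Nqo1 the control difference of 0.07 was not called, while in the siNrf2 libraries Nqo1 stood at 0.615 and 0.561 CPM in PyMT-1099 LT and 2.33 and 2.29 CPM in Py2T LT, a difference of 1.06 (adjusted p = 5.9e-05). The line by siRNA term of Nqo1 was 0.99 with an adjusted p of 0.268, so the change was not called.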

How the data were processed

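Libraries of ribosomal-RNA-depleted total RNA (TruSeq Stranded, 200 ng) were sequenced as single reads of 81 nt, per the labels. STAR and mm10 are named in the submitters' processing notes. The tool that counted reads per gene and its strand setting are not given in the sources used here. The authors deposited CPM values per gene. Entrez gene identifiers were matched to symbols for 24374 genes through RefSeq and for 7 more through GENCODE, and 73 had none.

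Genes were fitted with limma 3.58.1 (trend) in R 4.3.3 on log2(CPM + 1), with 1 mean for each of the 6 groups of 12 libraries (6 residual degrees of freedom). Alternatives used other filters, pseudocounts of 0.5 and 2, TMM scaling, fewer libraries, a replicate block, and edgeR 4.0.16 and DESeq2 1.42.0 on the whole reads recovered from the CPM values. Replicates differed by more than sampling noise, with a chi-square per gene of 16.1 to 88.5 between the replicates of a group, so none was merged.

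The genes compared and the 38 gene lists were chosen with earlier results of these data known. Most named genes had a proper symbol and a mean of at least 2 CPM in a line. They were the 15 largest called differences each way, up to 4 each way in each list, the 10 highest of the genes read in 1 line, and fixed regulators and markers. Members named at lower levels, such as Hoxa4, Hoxb8, Hoxb13, Esr1, Elf5 and Foxa1, genes of runs, and the kidney, liver and intestinal list were added after their values were seen. Some genes are not reported here by name.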

Additional observations from a re-analysis of the deposited data

How the results depend on the processing

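Each alternative kept the number of called genes within 1.5 times of 6686. Of the 2902 large differences, 2902 were called with the same sign with 4 libraries alone, with the filter over 12 libraries, TMM scaling, either pseudocount and edgeR, 2897 with DESeq2, 2894 without a filter and 2873 with 8 libraries. At 5 CPM 2235 of them were tested and 2234 called. Without single control libraries 2842 to 2882 were called. None took the opposite sign. TMM scaling moved the median over all genes from -0.029 to -0.006. A minimum of 1 CPM instead of 5 gave 465 genes read in Py2T LT only and 268 in PyMT-1099 LT only, since it admits lower genes. The chromosome 10 median was 0.589 in the siNrf2 libraries and 0.623 in the control libraries, and the cause was not tested. The line by siRNA term called 1 gene with the filter over 12 libraries and 15 without a filter; the cause was not tested. Of 362 named genes, 351 were called, 17 of which lost the call under some alternative. When single libraries were left out, 5 genes that were not called changed sign: Cdkn2a (-0.123 to 0.014), Col1a2 (-0.022 to 0.436), Id2 (-0.625 to 0.276), Snai1 (-0.153 to 0.087) and Tcf4 (-0.082 to 0.409).

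Replicate numbers are shared by the groups, but only 2 pairs link the lines and no label says what a number stands for. Deviations of same-numbered control libraries correlated with r = 0.608 across genes. With the replicate block 8726 genes were called, 4192 higher and 4534 lower, of which 1412 and 1516 were large, and the line by siRNA term called 1. All 2902 large differences remained called, and Xist, Zeb1, Zeb2 and Trp53 were called as well.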
